A study of Mus musculus with 2 samples.

Results

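The MPP2 gate held the bone marrow cells that carried the surface tags of CD48 and CD150 together, with little CD135. Members were chosen by measured tag values alone, on the centred log ratio (CLR), which is the natural log of a tag's UMIs plus 1 minus the mean of that value over all antibody features of the cell. A cell was a member with a CLR of at least 0.53 for CD48, at least 1.56 for CD150 and under -0.43 for CD135, after cells under 500 genes or with 10% or more of mitochondrial UMIs had been left out. Members numbered 195 of 7967 kept cells, of which 93 of 3969 were in the control pool and 102 of 3998 in the chelator pool. The 2 pools had been profiled by CITE-seq, in which RNA and antibody tags are counted in the same cell, from LSK cells sorted out of bone marrow (lineage-negative, Sca-1-positive and c-Kit-positive). Control mice received the vehicle HBSS and chelator mice the iron chelator deferoxamine at 50 mg/kg. Courses of 7 daily doses were repeated every 4 weeks for 13 months from about 6 months of age. The design asked what long chelation does to ageing stem cells. The pools carried 1 hashtag each and were loaded together, which gave 1 RNA library and 1 tag library, and the sources used here give no strain, genotype, sex or number of mice. With 1 pool per condition there was no replicate, no test was run, and every 95% interval covers counting error only.

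LSK cells are commonly divided by CD135, CD48 and CD150 into stem cells (the HSC gate, CD150 alone), MPP1 (none of them), MPP2 (CD48 and CD150), MPP3 (CD48 alone) and MPP4 (CD135). CD150, encoded by Slamf1, and CD48 are related receptors of the SLAM family, CD135 is the receptor tyrosine kinase Flt3, and the loss of CD150 and gain of CD48 accompany the exit from the stem cell state. MPP2 cells are known as the rare multipotent fraction with a bias towards megakaryocytes and erythrocytes, a fate driven by the transcription factors GATA1 and, on the erythroid side, KLF1. Pf4 encodes platelet factor 4, a chemokine stored in platelet granules.

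Within the CD135-low cells few carried both tags, and a share with both cannot exceed that with either. In the control pool 25.9% of 2317 CD135-low cells were CD48-positive and 54.3% were CD150-positive, and 4.01% were both. In the chelator pool the shares were 27.7%, 54.4% and 3.92% of 2600 cells. Among CD48-positive cells alone, 15.5% in the control and 14.2% in the chelator pool were also CD150-positive. The members' median CLR was 1.07 for CD48, 2.23 for CD150 and -1.05 for CD135, with a median of 62 CD150 UMIs, 20 CD48 UMIs and 1 CD135 UMI per cell. The gate cut through a continuous cloud: 89 of the 195 members (45.6%) lay within 0.25 of at least 1 threshold. The nearest values inside and outside were 0.531 and 0.522 for CD48, 1.57 and 1.56 for CD150, and -0.434 and -0.428 for CD135.

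**Figure D1:**
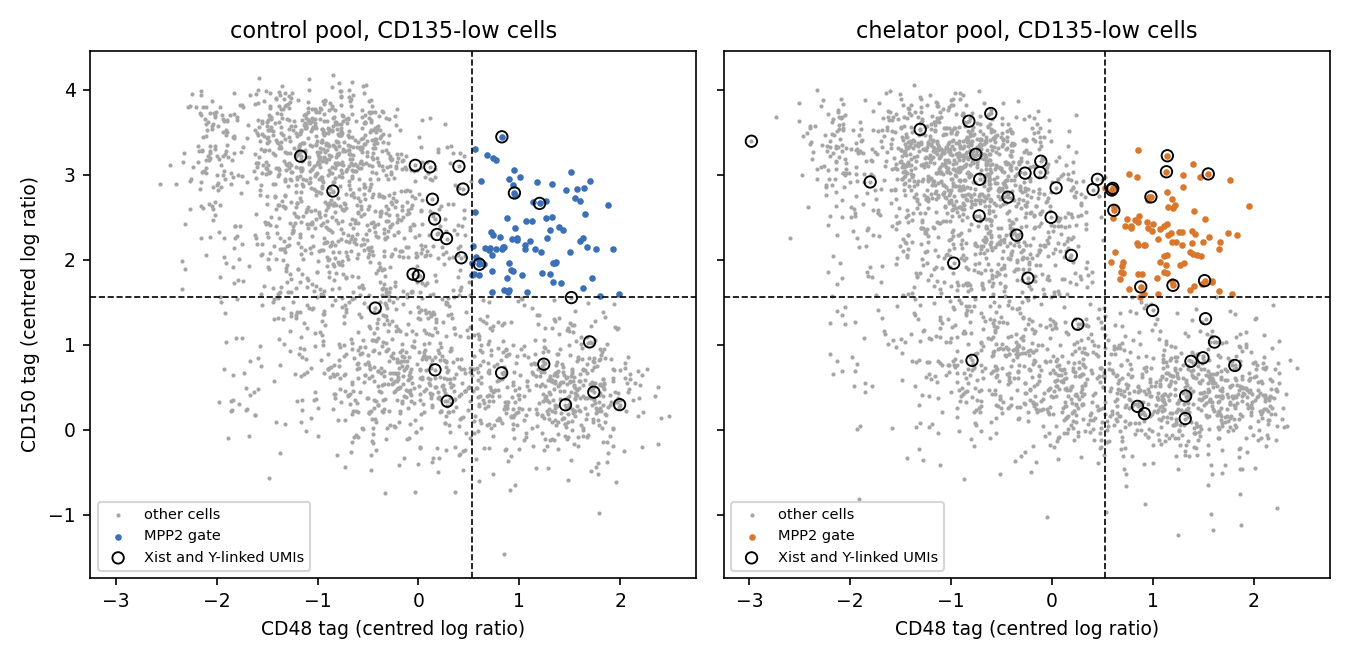
CD48 tag (x axis) against CD150 tag (y axis), both as centred log ratios, in the CD135-low cells of the control and the chelator pool, with dashed lines at the gate's thresholds. Coloured points are the 93 and 102 members, open circles mark cells with Xist and Y-linked UMIs together, and the members lie between the 2 dense clouds of CD150-positive and CD48-positive cells.

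Members were large libraries. They had a median of 20586 gene UMIs in the control and 21883.5 in the chelator pool, against 13589 and 14303 in all other kept cells. The MPP3 gate had medians of 18614 and 18451.5, and the HSC gate 12698 and 13304. A sign of 2 cells in 1 droplet was also more frequent: 14 of 195 members (7.18%, 3.98 to 11.8) had at least 2 UMIs of Xist and at least 2 of Y-linked genes, against 73 of 7772 other cells (0.939%, 0.737 to 1.18). The share was 1.33% in the HSC gate and 1.51% in the MPP3 gate. Such cells show only pairs of opposite sex, and no doublet caller was run. Leaving out these 14 cells kept 181 members and moved 4 of the 99 values that were recomputed, all of them single genes (Car1, Sult1a1 and Procr), without turning a direction.

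Cells with Xist, the transcript of the inactive X of females, made up more of the gate than of the other kept cells. Xist cells had 2 or more Xist UMIs and lacked Y-linked ones, and Y-linked cells had at least 1 UMI of 4 Y-linked genes and lacked Xist. In the control pool 50 of 79 sexed members had Xist (63.3%, 51.7 to 73.9), against 41.6% of the other sexed cells. In the chelator pool they were 40 of 84 (47.6%, 36.6 to 58.8), against 25.5%. Put the other way, the gate took 3.53% of control cells with Xist and 1.49% of those with Y-linked transcripts. In the chelator pool it took 4.46% and 1.73%. The number of mice of each sex is unknown, so sex and animal cannot be told apart.

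The RNA of the gate's markers followed the tags. Slamf1 stood at 24.3 CPM in the control and 29.0 CPM in the chelator members (a gene's UMIs as a share of all gene UMIs, summed over the gate's cells of a pool and scaled to CPM). It was at 58.4 and 58.5 CPM in the HSC gate and at 2.42 and 1.73 CPM in the MPP3 gate, so the members lay between them. Cd48 stood at 58.9 and 70.0 CPM in the members, 2.60 and 2.01 CPM in the HSC gate and 139 and 136 CPM in the MPP3 gate. Flt3, whose protein the gate selects against, was at 29.9 and 45.2 CPM, above the 7.00 and 8.76 CPM of the HSC gate and under the 280.2 and 276 CPM of the MPP4 gate. Gata1 reached 107 CPM (93.1 to 121) and 116 CPM (102 to 130) in the members and between 4.93 and 22.4 CPM in the HSC, MPP3 and MPP4 gates, with log2 ratios over the HSC gate of 2.38 (2.13 to 2.63) and 2.74 (2.50 to 2.97). Pf4 stood at 525 and 339 CPM in the members, 234 and 237 CPM in the HSC gate and 32.1 and 13.0 CPM in the MPP3 gate. Its log2 ratio over the HSC gate was 1.17 (1.07 to 1.27) and 0.52 (0.41 to 0.63) over all members, but -1.30 and -1.57 in members with Y-linked transcripts.

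**Figure D2:**
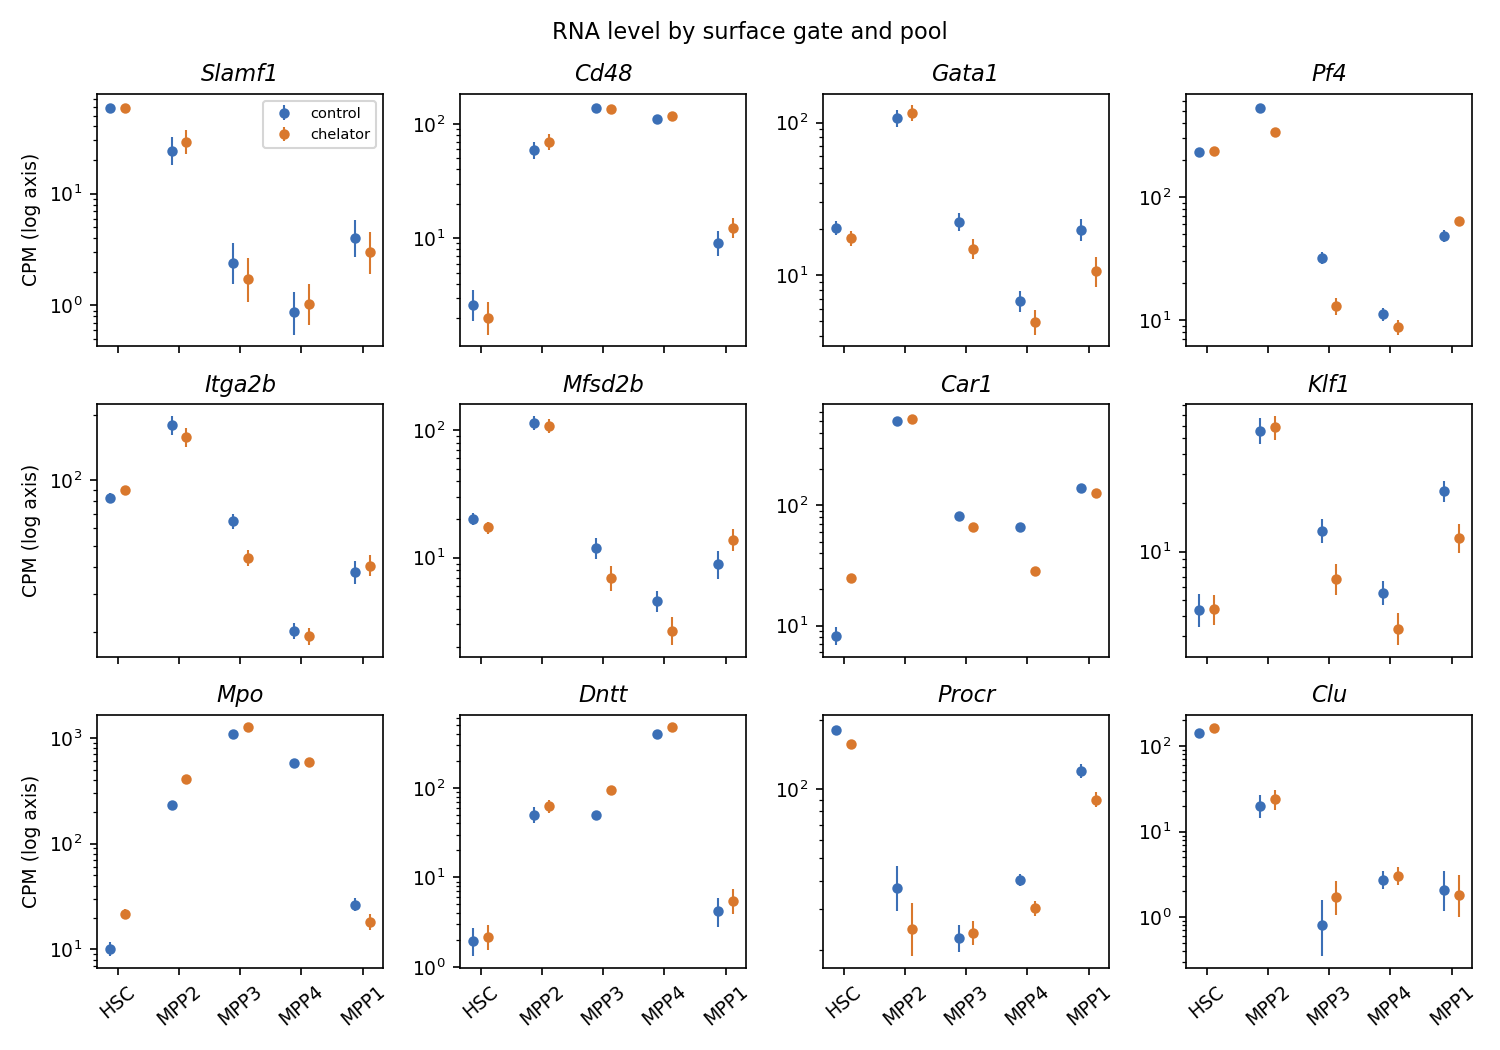
RNA level (CPM, log axis, each panel with its own range) of 12 genes in 5 surface gates, for the control and the chelator pool, with bars for the exact 95% Poisson interval of the summed UMIs. Gata1, Itga2b, Mfsd2b, Car1 and Klf1 are highest in the MPP2 gate in both pools, while Slamf1, Procr, Clu and Cd48 lie between the HSC and MPP3 gates in the control pool.

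Seen per cell, these genes were detected in a minority of members. With every cell thinned to 5000 UMIs, Gata1 was seen in 32 of 92 control members (34.8%, 25.1 to 45.4) and in 38 of 99 chelator members (38.4%, 28.8 to 48.7). The lymphoid-biased MPP4 gate, set beside them as the background, gave 1.88% and 1.61%, and the HSC gate 5.04% and 5.03%. Pf4 was seen in 29.3% and 26.3% of members, against 4.52% in the MPP4 gate of either pool. Nearer gates gave more, with Pf4 in 13.3% and 15.3% of the HSC gate and 15.4% and 15.8% of the MPP1 gate. Without thinning, the Gata1 shares of members were 66.7% and 62.7% and the Pf4 shares 50.5% and 48.0%. Thinning left out 1 control and 3 chelator members with fewer UMIs.

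A small set of genes was higher in the gate than in both neighbours. Of 11630 genes with at least 50 UMIs in each comparison, 49 (0.421%) were more than 2-fold higher than in the HSC gate and in the MPP3 gate in both pools, and 40 (0.344%) were more than 2-fold lower. The 10 with the highest ratios, a ranking chosen after the values were seen, were Car1, Mfsd2b, Gata1, Klf1, Samd14, Tuba8, Tspo2, Optn, F2r and Abcb4. Several are known from red cell and platelet biology. Car1 encodes the erythroid carbonic anhydrase 1, Mfsd2b exports sphingosine-1-phosphate from erythrocytes and platelets, Klf1 encodes an erythroid transcription factor, and F2r encodes the thrombin receptor PAR1. Mfsd2b was the most even of them: it stood at 114 and 107 CPM in the members, 20.2 and 17.3 CPM in the HSC gate and 11.9 and 6.90 CPM in the MPP3 gate, and its richest cell held 4.90% and 4.38% of its UMIs. Klf1 stood at 55.6 and 58.5 CPM in the members, 4.35 and 4.38 CPM in the HSC gate and 13.4 and 6.74 CPM in the MPP3 gate. F2r stood at 86.0 and 73.8 CPM in the members, 35.1 and 29.4 CPM in the HSC gate and 17.8 and 14.1 CPM in the MPP3 gate. Being above both neighbours was part of how these genes were picked, so these levels are a description.

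The promoters of Pf4, Mfsd2b, Gata1 and Klf1 are shown because Pf4 and Gata1 are among the gate's marker genes and Mfsd2b and Klf1 rank with Gata1 above both neighbours. The windows run from 250 bases before to 50 bases after the annotated start, in RefSeq's GRCm38.p6, 5′ to 3′ along the gene's strand, and a match to the GATA motif AGATAA on either strand is in capitals. Pf4 lies at chr5:90772185-90772484 on the plus strand, Mfsd2b at chr12:4874310-4874609 on the minus strand, Gata1 at chrX:7967861-7968160 on the minus strand and Klf1 at chr8:84901732-84902031 on the plus strand.
Pf4: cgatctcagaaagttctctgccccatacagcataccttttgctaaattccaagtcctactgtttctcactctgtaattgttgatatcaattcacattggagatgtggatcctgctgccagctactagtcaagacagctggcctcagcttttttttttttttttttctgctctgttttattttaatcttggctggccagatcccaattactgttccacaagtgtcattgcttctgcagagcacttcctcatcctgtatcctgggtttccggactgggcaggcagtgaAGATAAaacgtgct
Mfsd2b: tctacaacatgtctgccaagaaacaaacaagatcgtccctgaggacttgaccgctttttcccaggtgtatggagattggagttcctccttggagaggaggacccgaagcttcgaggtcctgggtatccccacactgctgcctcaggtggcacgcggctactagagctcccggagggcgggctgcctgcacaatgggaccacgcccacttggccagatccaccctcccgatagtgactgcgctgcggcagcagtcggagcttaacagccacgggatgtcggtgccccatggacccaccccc
Gata1: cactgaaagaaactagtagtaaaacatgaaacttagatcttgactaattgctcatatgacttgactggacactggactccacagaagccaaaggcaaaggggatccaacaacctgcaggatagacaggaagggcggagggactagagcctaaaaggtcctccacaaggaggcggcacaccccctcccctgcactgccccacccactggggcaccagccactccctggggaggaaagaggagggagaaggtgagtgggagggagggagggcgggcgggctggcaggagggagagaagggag
Klf1: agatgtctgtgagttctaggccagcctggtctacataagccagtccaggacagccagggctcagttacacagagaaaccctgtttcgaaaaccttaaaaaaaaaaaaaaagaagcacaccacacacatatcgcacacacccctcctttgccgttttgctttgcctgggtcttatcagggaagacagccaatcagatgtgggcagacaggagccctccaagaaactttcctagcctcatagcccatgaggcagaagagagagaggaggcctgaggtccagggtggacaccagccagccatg
Pf4 had 1 match to AGATAA, 36 bases after the start, and the other windows shown had none. Other forms of the GATA motif were not searched, such as the TGATAA that the Klf1 window holds on its reverse strand. None of the 4 held the ETS motif CCGGAAGT on either strand. Of 32851 promoters of the same length, 3672 (11.2%) held AGATAA and 1277 (3.89%) held CCGGAAGT. Of the 10 genes ranked above, 8 were found in the promoter table, and Car1 and Samd14 were not.

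Against the MPP3 gate, which shares CD48 but lacks CD150, the members were higher in platelet and megakaryocyte genes. In all, 212 of 11851 genes tested (1.79%) were more than 2-fold higher in both pools and 240 (2.03%) more than 2-fold lower. Of the 27 megakaryocyte and platelet genes tested, out of 32 listed, 27 were above 0 in both pools and 19 were more than 2-fold higher, with median log2 ratios of 1.92 in the control and 2.04 in the chelator pool. Over all genes tested the medians were 0.03 and 0.01, and 36.3% were above 0 in both pools. The ranking was led by Pf4, with log2 ratios of 4.03 (3.85 to 4.22) and 4.71 (4.46 to 4.96), and by Cavin2, a caveolar coat protein gene, with 4.02 and 5.30. The Pf4 ratio differed with sex: it was 6.12 and 6.07 in cells with Xist, and 0.80 (0.39 to 1.19) and 2.80 (2.36 to 3.23) in cells with Y-linked transcripts. Also among the highest were Mfsd2b, Car1, Slc14a1 (a urea transporter) and Gp5, whose product is part of the platelet receptor for von Willebrand factor. Gp5 stood at 71.5 and 61.5 CPM in the members and at 9.87 and 6.49 CPM in the MPP3 gate. Of the other megakaryocyte genes with many UMIs, Rap1b, a small GTPase of platelet activation, stood at 505 and 412 CPM against 188 and 171 CPM, and Gata2 at 267 and 236 CPM against 121 and 94.0 CPM. Several of these genes were as high or higher in the HSC gate. Cavin2 stood at 99.96 and 84.1 CPM in the members and at 209.6 and 207 CPM there, and Gata2 had log2 ratios over the HSC gate of 0.10 (-0.03 to 0.22) and -0.08 (-0.21 to 0.05). Sult1a1, Nupr1 and Apoe, which were among the highest too, are genes that the HSC gate also held at 227.8 and 262, 256 and 247, and 703 and 640 CPM in the 2 pools.

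Erythroid genes were above the MPP3 gate as well: 19 of 24 tested were above 0 in both pools and 11 were more than 2-fold higher, with medians of 0.84 and 1.65. The receptor for erythropoietin, Epor, stood at 18.7 and 21.8 CPM against 3.22 and 2.38 CPM, a value read after the levels had been seen. Granulocyte and monocyte genes went the other way, with 24 of 25 below 0 in both pools where 30.3% of all genes were, 15 more than 2-fold lower, and medians of -2.01 and -1.45. Among the lowest were Elane, Ccl5, Ctsg, Mpo and Cd34, of which Elane, Ctsg and Mpo encode granule proteins of neutrophils. Mpo stood at 234 and 406 CPM in the members against 1102 and 1265 CPM in the MPP3 gate. Ccl5 had 1 UMI in the control and 0 in the chelator members, against 29.2 and 44.6 CPM in the MPP3 gate, so that it was at least 34.8-fold lower in the chelator pool, taking 3 counts as the floor for the members of a pool. Lymphoid genes were mostly lower, with 13 of 18 below 0 and medians of -0.62 and -0.58.

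Against the HSC gate, which shares CD150 but lacks CD48, the members were lower in stem cell genes and higher in cell-cycle genes. Of 13011 genes tested, 467 (3.59%) were more than 2-fold higher in both pools and 1104 (8.49%) more than 2-fold lower. Of 32 stem cell identity genes, 29 were below 0 in both pools and 22 were more than 2-fold lower, with medians of -1.52 and -1.51, beside -0.04 and -0.05 over all genes and 42.8% of genes below 0. The ageing stem cell list gave 31 of 34 below 0 and 25 more than 2-fold lower. The 6 lowest genes by the ranking were Clu, Sult1a1, Procr, Matn4, Il1rapl2 and Tgm2. Procr, the endothelial protein C receptor that marks stem cells, stood at 37.4 and 24.8 CPM in the members against 180.5 and 157 CPM. Clu, the chaperone clusterin, stood at 20.1 and 23.9 CPM against 144 and 164 CPM. Vwf, a marker of platelet-biased stem cells, stood at 41.6 and 30.7 CPM against 109.7 and 102 CPM, and was still well above the 2.22 and 1.40 CPM of the MPP3 gate. The megakaryocyte list as a whole did not separate the 2 gates: 15 of 29 genes were above 0 in both pools and 8 below, with medians of 0.29 and 0.02. Within it, by genes picked after the values were seen, Gata1, Gp5 and Itga2b (the CD41 gene) were higher in the members and Vwf and Selp (P-selectin) were lower, in both pools. Itga2b stood at 179.8 and 158 CPM against 83.3 and 90.2 CPM.

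Cell-cycle transcripts were higher than in the HSC gate. All 45 G2 and mitosis genes and all 36 S phase genes tested were above 0 against the HSC gate in both pools, where 35.9% of all genes were, and 38 and 9 of them were more than 2-fold higher. Mki67, the proliferation antigen, stood at 456 and 474 CPM in the members against 162 and 134 CPM in the HSC gate. Against the MPP3 gate the 2 phases split: 40 of 45 G2 and mitosis genes were above 0, with medians of 0.43 and 0.31, whereas 29 of 36 S phase genes were below 0, with medians of -0.26 and -0.17, and no gene of either list was past 2-fold. Per cell, with 5000 UMIs each, 70 of 92 control members (76.1%, 66.1 to 84.4) and 84 of 99 chelator members (84.8%, 76.2 to 91.3) scored above 0 for S or for G2M. The HSC gate gave 20.8% and 22.1% and the MPP3 gate 70.8% and 72.7%. Without thinning the members' shares were 77.4% and 84.3%. Free RNA can enter such scores, and its part was not tested. The tag of CD71, the transferrin receptor that dividing cells carry, was higher than in the HSC gate by 0.57 CLR in each pool, and that of CD98, an amino acid transporter chain, by 0.55 and 0.41.

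**Figure D3:**
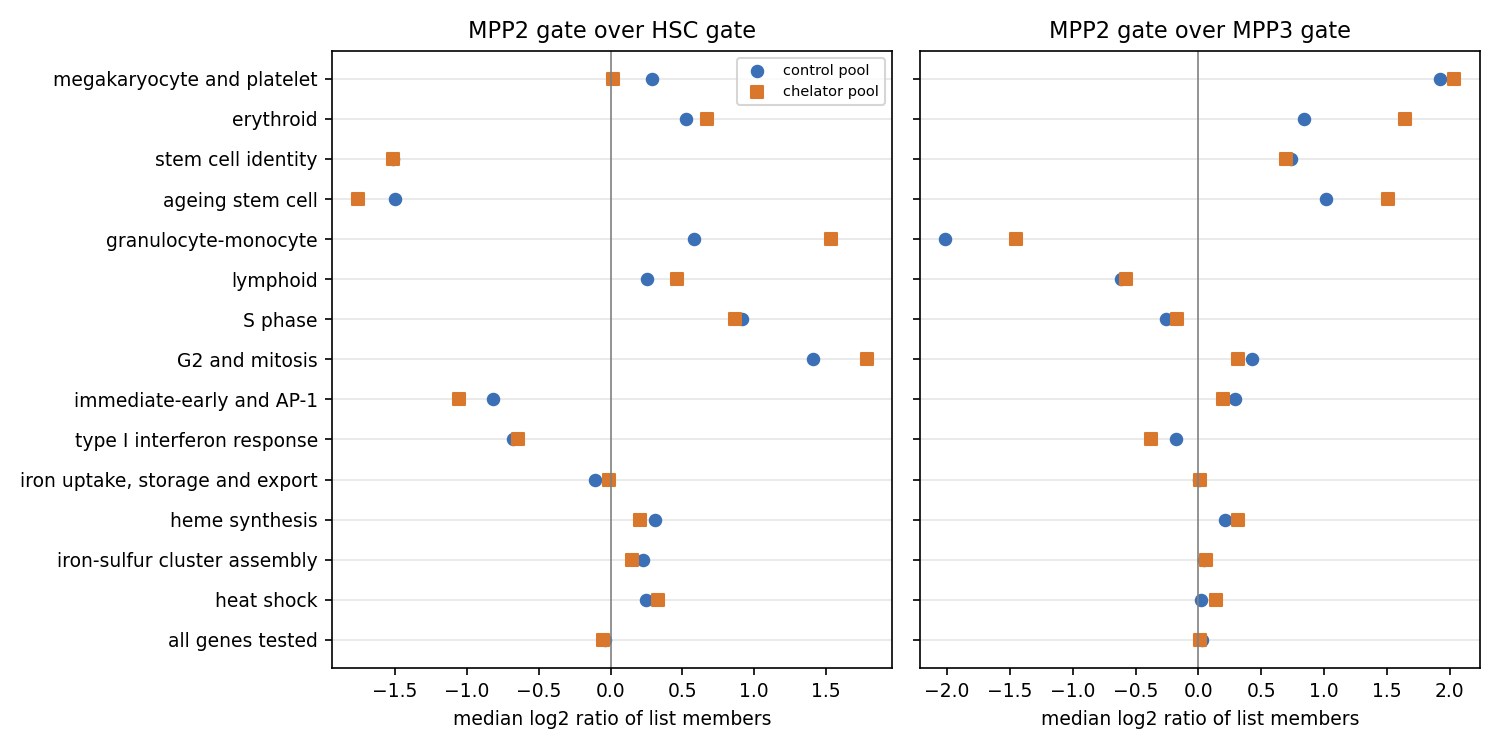
Median log2 ratio (x axis) of the genes of 14 lists and of all genes tested (y axis), for the MPP2 gate over the HSC gate (left) and over the MPP3 gate (right), with circles for the control and squares for the chelator pool. Stem cell identity and ageing genes lie near -1.5 and G2 genes above 1.4 on the left, and megakaryocyte genes lie near 2 on the right.

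The genes with the highest ratios over the HSC gate included several whose UMIs lay in few members, among them Jchain, Car1, Mpo, Ctsg and Dntt. The ranking read Jchain, Car1, Mpo, Plac8, Ctsg, Cd48, Nkg7, Dntt, Cst7 and Cd52. Jchain, the joining chain of secreted antibodies, rested on 1 cell per pool, which held 566 of 566 UMIs in the control and 1987 of 1991 in the chelator pool. Those cells also held 1018 and 720 UMIs of Igkc, an antibody light chain, and 94 and 41 of Mzb1, a plasma cell gene. The chelator cell had a CD138 tag, a plasma cell marker, at 4.69 CLR and CD117 (c-Kit) at 0.58, against a mean of 4.94 over the chelator members. The control cell had CD138 at 1.02 and CD117 at 3.56. Without the richest cell of each sum the Jchain ratio went from a mean log2 of 9.20 over the 2 pools to 1.13. Mpo had 53.6% of its UMIs in 1 control cell and 71.9% in 1 chelator cell, Ctsg 63.7% and 63.9%, and Elane 87.5% and 98.8%. Car1 was seen in 16 of 93 control and 15 of 102 chelator members, with 51.2% and 34.9% of its UMIs in the richest. The granulocyte and monocyte list had 12 of 20 genes above 0 against the HSC gate and medians of 0.58 and 1.53, and the mean of the 2 medians went from 1.06 to 0.19 without the richest cell of each gene and to -0.047 in members with Xist. Plac8, Nkg7 and Cd48 were spread more widely. Cd48 was seen in 50 control and 67 chelator members. Plac8 was seen in 75 and 88 members and Nkg7 in 87 and 92, with at most 7.79% of the UMIs in 1 cell. Plac8 stood at 329.8 and 373 CPM against 27.8 and 29.3 CPM in the HSC gate, and was lower than in the MPP3 gate, where it was at 604 and 643 CPM.

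Markers of mature cells were low but not at 0. Of 15 T, NK and innate lymphoid genes, 8 and 9 had a UMI in the members, and Cd3e, Cd3d and Cd3g were at 0. Their summed level was 349 and 315 CPM against 225 and 205 CPM in the HSC gate and 428 and 434 CPM in the MPP3 gate. The sum includes Nkg7, which is also on the granulocyte and monocyte list. Of the 6 genes tested against the HSC gate, 2 were above and 3 below 0 in both pools, with medians of -1.93 and -0.26. Over all genes tested 35.9% were above and 42.8% below 0. The 10 B and plasma cell genes summed to 957 and 1308 CPM, of which 89.2% and 91.9% came from 1 cell per pool, and Pax5 was at 0. Of 15 macrophage and dendritic genes 12 and 13 were seen, at 512 and 573 CPM against 658 and 619.5 CPM in the HSC gate, with Siglech at 0. Of their UMIs 41.7% and 35.6% came from 1 cell per pool. Of 12 endothelial and stromal genes 5 were seen in each pool, with Cdh5 and Cxcl12 among those at 0. Mast cell and basophil genes summed to 706 and 691 CPM, beside 722 and 705 CPM in the HSC gate and 905 and 612 CPM in the MPP3 gate. That list also holds Gata2, named above among the megakaryocyte genes, and Kit, whose protein the sort selected. Cpa3, the mast cell carboxypeptidase, stood at 43.0 and 44.4 CPM against 4.89 and 3.09 CPM in the HSC gate. After thinning, Cpa3 was seen in 18.5% and 17.2% of members and in 21.8% and 16.0% of MPP3-gate cells. The part of such cells in the results above was not tested beyond leaving out the richest cell of each gene.

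The members were not of 1 kind. Cells thinned to 5000 UMIs were sorted by whether they had any UMI of a stem set (Procr, Clu, Sult1a1, Vwf), a myeloid and lymphoid set (Mpo, Ctsg, Elane, Dntt) and a megakaryocyte and erythroid set (Gata1, Pf4, Car1, Klf1), all chosen after the values had been seen. Of 191 members, 112 (58.6%, 51.3 to 65.7) had the megakaryocyte and erythroid set, 61 (31.9%) the stem set and 47 (24.6%) the myeloid and lymphoid set. The megakaryocyte and erythroid set was seen in 16.9% and 18.7% of HSC-gate cells and in 13.6% and 10.6% of MPP3-gate cells. Car1, Gata1 and Klf1 had ranked among the highest in the members over both of these gates, so this contrast follows in part from the choice. The megakaryocyte and erythroid set stood alone in 84 members (44.0%) and no set was seen in 29 (15.2%). The HSC gate showed the stem set in 84.2% of control and 85.5% of chelator cells, and the MPP3 gate the myeloid and lymphoid set in 63.0% and 65.4%. Those shares also follow in part from the choice. Clu, Sult1a1 and Procr ranked lowest against the HSC gate, and Elane, Ctsg and Mpo among the lowest against the MPP3 gate. The stem set and the myeloid and lymphoid set met in 30 members (15.7%, 10.9 to 21.7), against 3.98% and 3.77% of the HSC gate and 8.02% and 7.76% of the MPP3 gate. Of those 30 members 8 (26.7%, 12.3 to 45.9) carried both sex markers, and their median depth was 27326 UMIs. None of the 84 members with the megakaryocyte and erythroid set alone did (0%, up to 4.3), and their median depth was 20123.5 UMIs. Without cells carrying both sex markers, 22 of 177 members (12.4%) had the stem set together with the myeloid and lymphoid set, and 109 (61.6%) had the megakaryocyte and erythroid set.

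Surface tags gave the protein side. Against all other kept cells, and apart from the tags of the gate, the largest positive differences of mean CLR were those of CD55, CD11a, CD41, CD98, CD49d, CD71, integrin beta 7 and CD9. CD55, an inhibitor of complement, had a mean CLR of 2.11 ± 0.53 (SD over 93 cells) in the control and 2.16 ± 0.57 (SD over 102 cells) in the chelator members, against 1.29 and 1.32 in the others. CD41, the platelet integrin alpha IIb, stood at 1.52 ± 0.82 and 1.47 ± 0.69 against 0.92 and 1.06. CD11a, an integrin chain of leukocytes, was at -0.03 and 0.14 against -0.67 and -0.74. The MPP3 gate was closer for CD11a, CD49d and CD71, with members higher by 0.07 and 0.24, 0.08 and 0.20, and 0.14 and 0.04. For CD98 and integrin beta 7 the members were above that gate by 0.33 and 0.22 and by 0.16 and 0.42. For CD55, CD41 and CD9 they were above it by 1.30 and 1.51, 0.98 and 1.01, and 0.63 and 0.57. Among the lowest differences were those of Sca-1 (the Ly-6A/E tag, by -0.62 and -0.58), CD24, CD86, CD27 and Ly-49A. Against the HSC gate CD24 and Ly-49A were lower too, whereas CD86 was higher by 0.31 and 0.33 and CD27 by 0.09 and 0.16. The MPP3 gate was near the members for CD24, with differences of -0.04 and -0.16, and for Ly-49A, with -0.02 and 0.001. CD86 and CD27 were lower on the members than in that gate. Sca-1 was lower on the members than in the HSC gate, by -0.84 and -0.78, and so was the transcript Ly6a, read after the levels had been seen, at 64.9 and 47.8 CPM against 199 and 187 CPM. CD117 was higher than in the other cells by 0.17 and 0.15. The integrin partner CD61 stood at 0.89 in either pool, below the 2.21 and 2.36 of the HSC gate. CD9 was higher than in the other cells by 0.37 and 0.26. The HSC gate was above the members for CD55, CD41 and CD9 alike: its means were 2.35 and 2.36 for CD55, 1.89 and 2.13 for CD41, and 1.39 and 1.43 for CD9. CD93 was lower by 0.18 and 0.20, whereas CD34 and CD62P differed in opposite directions in the 2 pools, by at most 0.10.

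Within the gate CD41 was high on members with the platelet transcript Pf4 and low on those with the erythroid transcript Car1. In members with a Pf4 UMI after thinning, CD41 stood at 2.15 ± 0.73 (SD, 27 control cells) and 1.93 ± 0.59 (SD, 26 chelator cells), and in those without at 1.26 ± 0.72 and 1.29 ± 0.65. CD9 was higher with Pf4 by 0.81 and 0.69. In members with a Car1 UMI, CD41 stood at 0.35 ± 0.45 (SD, 12 control cells) and 0.41 ± 0.51 (SD, 11 chelator cells), against 1.70 ± 0.72 and 1.59 ± 0.59 without. Gata1-positive members had less CD61, with means of 0.48 and 0.25 against 1.11 and 1.25 in the rest.

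Several megakaryocyte transcripts and the erythroid transcript Car1 were divided between the sexes. Of the 1124 control Pf4 UMIs, 1021 came from the 50 members with Xist and 67 from the 29 with Y-linked transcripts, which gave 944 CPM (887 to 1004) and 97.6 CPM (75.6 to 124). In the chelator pool they gave 681 CPM (628 to 738) and 84.3 CPM (67.3 to 104). In the HSC gate the 2 sexes were close, at 298 and 240 CPM in the control and 276 and 250 CPM in the chelator pool. The summed Pf4 level was therefore above the HSC gate in members with Xist and below it in members with Y-linked transcripts. The share of cells with a Pf4 UMI, at full depth, was not lower in the latter: it was 44.8% and 45.5% of members and 20.2% and 27.1% of the HSC gate, whose cells were shallower. In that gate the richest Y-linked cell held 447 of 2078 control and 421 of 3033 chelator UMIs. The share of cells with any Pf4 UMI differed less, at 31 of 50 against 13 of 29 control members and 22 of 40 against 20 of 44 chelator members. The richest cell held 263 of the 1021 control UMIs and 184 of the 594 chelator UMIs of members with Xist. F2r, and among genes picked after the values were seen Gp1bb (a chain of the platelet receptor for von Willebrand factor) and Itga2b, were higher in members with Xist too, by log2 ratios of 1.84 and 1.48, 1.64 and 2.07, and 0.97 and 1.10. The megakaryocyte list summed to 6042 and 5435 CPM with Xist and to 3476 and 2942 CPM with Y-linked transcripts. Gata1 itself was divided only in the chelator pool, with a log2 ratio of -0.20 (-0.61 to 0.21) in the control and 0.66 (0.28 to 1.03) in the chelator pool.

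Car1 went the opposite way. It stood at 104.5 CPM (86.1 to 126) in control members with Xist and at 1397 CPM (1310 to 1488) in those with Y-linked transcripts, and at 169.7 and 1072 CPM in the chelator pool. It rested on 6 and 10 control cells and on 6 and 8 chelator cells. The richest cell held 94 of 113 UMIs with Xist and 549 of 959 with Y-linked transcripts in the control pool. In the chelator pool it held 110 of 148 and 431 of 1068. Mfsd2b, also on the erythroid list, was instead higher with Xist, with log2 ratios of 0.45 (0.04 to 0.88) and 0.81 (0.42 to 1.20). Klf1 was lower with Xist in the control pool, with a log2 ratio of -1.68 (-2.28 to -1.09), and had -0.44 (-0.99 to 0.10) in the chelator pool. Mpo and Ctsg had fewer UMIs with Xist than with Y-linked transcripts in both pools, but much of this lay in single cells: 684 of 876 Mpo UMIs of the chelator members with Y-linked transcripts lay in 1 cell, and 30 of 31 control and 131 of 184 chelator Ctsg UMIs of such members did. The CD41 tag was higher with Xist by 0.43 and 0.16 CLR. Shares of members scoring above 0 for S or for G2M were 82.0% and 72.4% with overlapping intervals in the control pool, and 82.5% and 85.7% in the chelator pool.

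**Figure D4:**
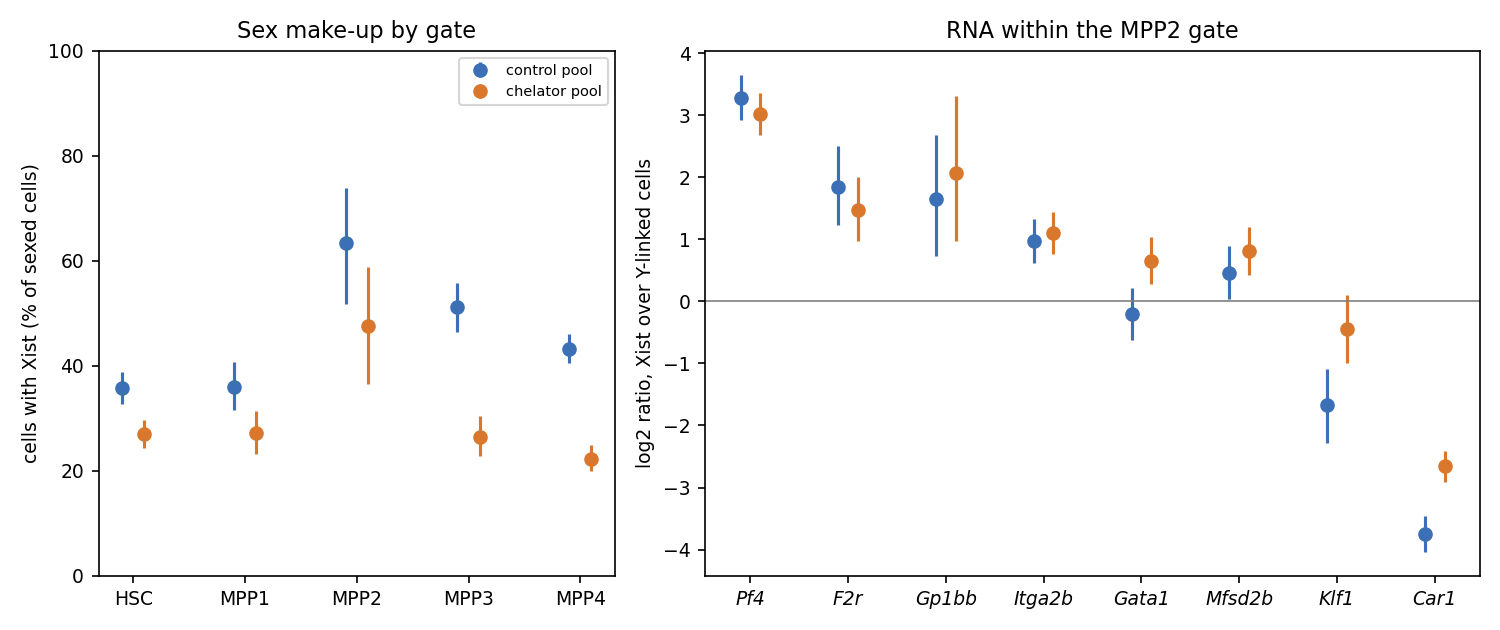
Left, share of sexed cells that have Xist (y axis, percent) in 5 gates, with exact 95% intervals for the control and the chelator pool. Right, log2 ratio of CPM between members with Xist and members with Y-linked transcripts (y axis) for 8 genes (x axis), with 95% counting intervals. Pf4, F2r, Gp1bb, Itga2b and Mfsd2b lie above 0 and Car1 lies below 0 in both pools.

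Between the treatments the difference in the size of the gate was within counting error. Its share was 2.34% of the control pool (1.90 to 2.86) and 2.55% of the chelator pool (2.08 to 3.09), a difference of 0.208 points (-0.490 to 0.908), not detectable at this number of cells. Within cells with Xist the difference was 0.931 points (-0.736 to 2.73), and within cells with Y-linked transcripts 0.245 points (-0.550 to 1.01). The sign depended on the thresholds: with thresholds 0.25 wider the gate held 357 cells and the difference was -0.409 points.

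Of 8754 genes with at least 50 UMIs in the members, 123 (1.41%) were higher and 168 (1.92%) lower in the chelator pool by more than 1.5-fold with an interval that left out 1. The 8 highest among the genes past the detection limits of the ranking were Ccl4, Tyrobp, Hist1h3g, Zwilch, Il3ra, Ms4a3, Epb41l4b and Ext1. Ccl4, an inflammatory chemokine, stood at 23.4 CPM in the control and 71.3 CPM in the chelator members, a log2 ratio of 1.61 (1.15 to 2.10), beside 0.16 in all other kept cells. It was seen in 16 and 24 members, and 2 members held 61 of its 167 chelator UMIs. Its ratio was 0.23 (-0.82 to 1.27) in members with Xist and 0.59 (-0.50 to 1.77) in those with Y-linked transcripts, so much of the pooled difference lay in members of neither class. Tyrobp, an adaptor of myeloid and NK receptors, stood at 16.8 and 46.5 CPM, a log2 ratio of 1.47 (0.91 to 2.05), with 1.16 and 1.01 in the 2 sexes and 0.05 in the other cells. Zwilch, a kinetochore gene, stood at 22.9 and 46.5 CPM and was seen in 30 and 50 members. Il3ra, the interleukin 3 receptor chain, stood at 15.9 and 31.6 CPM and was seen in 22 and 48 members. Zwilch had 0.43 in Xist members against 1.81 in Y-linked members, and Il3ra had 1.21 against 0.41. The ratios of Hist1h3g, Ms4a3, Epb41l4b and Ext1 were 1.21, 0.99, 0.96 and 0.90 over all members. Xist members gave 0.98, 0.31, 0.69 and 1.18, whereas Y-linked members gave 1.65, 1.70, 0.72 and 0.93. Hist1h3g belongs to a family of near-identical histone genes, so its reads are uncertain. For Tyrobp and Ms4a3, 2 members held 34 of 109 and 26 of 74 chelator UMIs.

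The lowest were Hspa1b, Hspa1a, Whamm, Dlg2, Plxdc2, Ltb, Gda and Selenoo. Hspa1b, which encodes inducible Hsp70, stood at 74.7 CPM in the control and 19.6 CPM in the chelator members, a log2 ratio of -1.93 (-2.43 to -1.45). Its near-identical copy Hspa1a stood at 41.6 and 11.1 CPM, a ratio of -1.91 (-2.60 to -1.26). Hspa1a was seen in 21 control and 5 chelator members, and 14 of its 26 chelator UMIs lay in 1 cell. Reads can be split between the pair. Outside the gate both were lower as well, by -2.31 and -2.12, so this was not a difference seen in the members alone. Over all 14 heat shock genes tested the median was -0.05, and 2 were lower past 1.5-fold. Whamm, a regulator of actin at membranes, stood at 33.2 and 12.4 CPM, a ratio of -1.42 (-2.10 to -0.78), beside -0.07 in the other cells. It was seen in 51 of 93 control and 22 of 102 chelator members, and was lower in members of either sex, by -1.82 and -1.36. Dlg2, a scaffold protein gene, stood at 65.4 and 28.2 CPM, a ratio of -1.22 (-1.66 to -0.78) beside 0.19 in the other cells, with -1.13 and -1.26 in the 2 sexes. Ltb, the lymphotoxin beta gene, had -0.98 in the members and -0.33 in the others. Gda, guanine deaminase, had -0.94 in the members and 0.10 in the others. Plxdc2 and Selenoo had -1.09 and -0.93 in the members. For Plxdc2, Ltb, Gda and Selenoo the ratios in Xist members were -1.50, -2.16, -1.14 and -1.12, whereas Y-linked members gave -0.54, -0.74, -1.48 and -0.67. Those of Hspa1b and Hspa1a were -1.57 and -0.82 in Xist members, against -2.16 and -3.62 in Y-linked members. The difference between members and other cells was not tested.

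**Figure D5:**
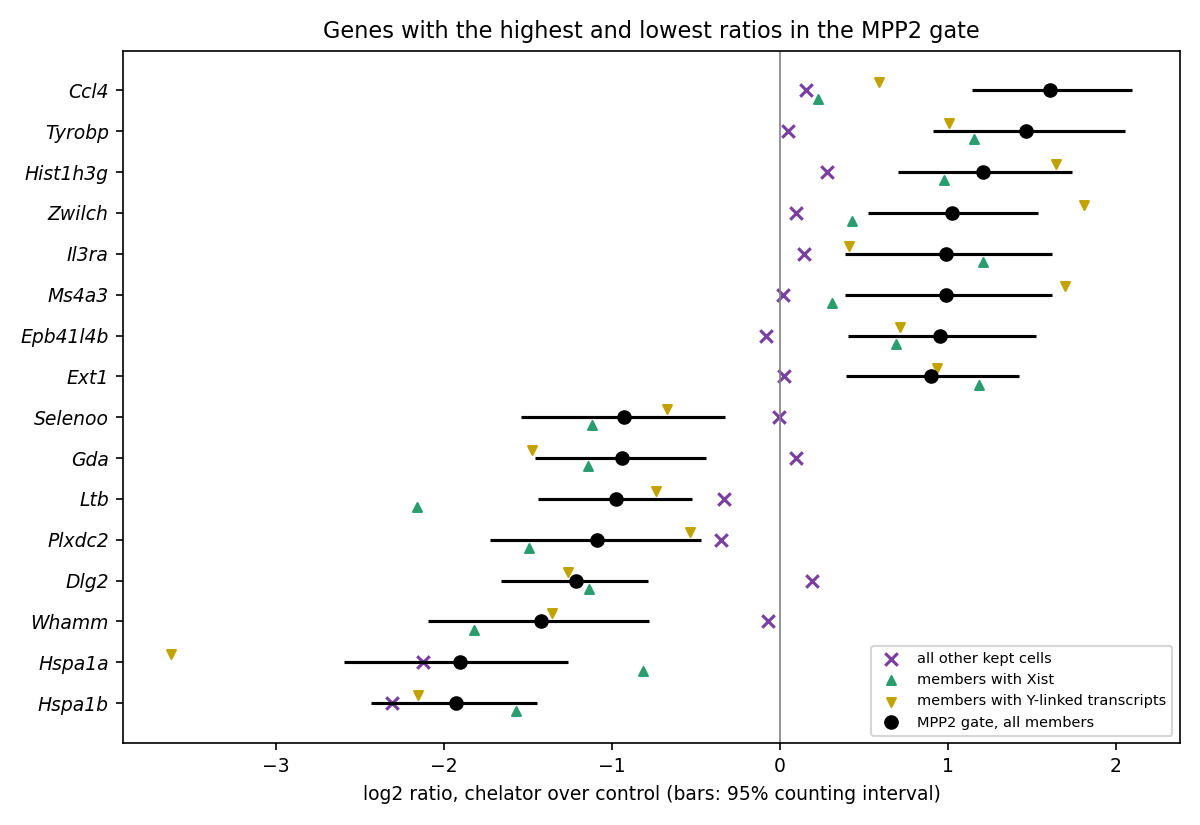
Log2 ratio of CPM, chelator over control (x axis), for the 8 highest and 8 lowest genes of the MPP2 gate (y axis). Black points with 95% counting intervals are all members, crosses all other kept cells, and triangles members with Xist (up) or with Y-linked transcripts (down), and only Hspa1a and Hspa1b have crosses beyond -1.

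Iron uptake, storage and export genes had a median log2 ratio of 0.06 over 21 genes, and none was past 1.5-fold. Of them 14 were above and 7 below 0, beside 47.8% and 52.2% of all genes. Fth1, the ferritin heavy chain that stores iron, stood at 1357 and 1437 CPM, a ratio of 0.08 (0.01 to 0.15), and Ftl1, the light chain, at 140.1 and 142 CPM. Tfrc, the transferrin receptor gene, stood at 15.4 and 17.1 CPM, a ratio of 0.15 (-0.55 to 0.86), a value read after the levels had been seen. Heme synthesis genes had a median of 0.08 over 11 genes and iron-sulfur cluster genes 0.02 over 25, with none past 1.5-fold in either list. Other lists had genes past 1.5-fold, beside 1.41% of all genes higher and 1.92% lower. Granulocyte and monocyte genes had a median of 0.13 over 13 genes, with 4 higher and 1 lower, and the median was -0.25 in Xist members against 0.42 in Y-linked members. Lymphoid genes had a median of 0.30 with 10 of 12 above 0, where 47.8% of all genes were, and 2 higher. Their median was -0.03 within either sex. Antigen presentation genes had 3 of 15 higher and 1 lower, and macrophage and dendritic genes 2 of 4 higher. These 2 lists share H2-Aa, H2-Ab1 and Cd74, so their counts are not separate. The richest cell held 41.7% of the control and 35.6% of the chelator macrophage and dendritic UMIs. The megakaryocyte list had a median of -0.22, with 24 of 27 genes below 0 where 52.2% of all genes were, and 3 were lower past 1.5-fold. The medians of its genes' lower and upper interval bounds were -0.51 and 0.05. Pf4 had a ratio of -0.63 (-0.76 to -0.50) in the members and 0.05 in the other cells, with -0.47 and -0.21 in the 2 sexes. The sex make-up of the members also differed between the pools, 63.3% with Xist in the control and 47.6% in the chelator pool, and its part was not tested. Within the sexes the megakaryocyte list's median was -0.08 with Xist, with 8 genes above and 18 below 0. With Y-linked transcripts it was -0.20, with 5 above and 16 below. Gata1 had 0.12 (-0.14 to 0.38), Slamf1 0.26 (-0.29 to 0.81) and Cd48 0.25 (-0.09 to 0.60).

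Some tags differed between the pools in the members and the other cells alike. CD62P, the P-selectin protein, differed by -0.49 CLR between the pools in the members and by -0.33 in the other cells, CD93 by -0.30 and -0.29, CD71 by -0.25 and -0.23, and CD34 by -0.25 and -0.18. CD41, CD98 and CD9 had opposite signs, at -0.06, -0.07 and -0.01 in the members and 0.14, 0.08 and 0.10 in the other cells. CD49d, integrin beta 7 and CD11a were higher in the chelator members by 0.18, 0.19 and 0.17, beside 0.01, -0.01 and -0.07 in the other cells. An isotype control, MOPC-21, differed by more than these, at 0.27 in the members and 0.16 in the other cells. The other isotypes lay between -0.09 and 0.07 in the members. Each condition was 1 hashed pool, so staining and treatment cannot be told apart.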

How the data were processed

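The authors deposited 1 matrix of raw UMI counts per condition, not normalized, with 32285 genes beside 2 hashtags and 126 antibody features, 9 of which are isotypes, per the file headers. The submitters' processing notes name mm10, Seurat 4.3.0 and Cell Ranger 7.0.0, while the matrix header names Cell Ranger 7.0.1. The sources used here do not say how barcodes were filtered or hashtags assigned. The matrices held 4026 and 4037 barcodes, of about 20000 sorted cells per sample, and shared 0 barcodes. The gate's cells held 2140762 control and 2342988 chelator gene UMIs. A matrix was given its condition by its name.

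UMI counts were summed over the cells of a gate and pool and given as CPM, with exact Poisson intervals. Ratios carry exact conditional binomial intervals, shares exact Clopper-Pearson intervals, and differences of shares an interval built from them, all at 95%. Genes with at least 50 UMIs over the groups compared were counted, and a group with none was taken at a floor of 3 counts. Shares of cells and cycle scores used cells thinned to 5000 UMIs. Cells are not replicates, so no p-value was computed. No doublet caller was run. Named genes were the 10 highest and 6 lowest ratios against each gate, ranked by the pool nearer 1 with 10 CPM added, and the 8 highest and 8 lowest chelator over control. The latter needed at least 100 UMIs, a UMI in 10% of members of either pool and no cell above 20% of the UMIs of both pools together. Within 1 pool a cell could hold more. Mitochondrial, immunoglobulin, T-cell receptor, predicted and haemoglobin genes were left out of the rankings, but not Jchain. Up to 6 members of each of 23 lists could be named, besides the gate's markers, and genes outside this rule were chosen after their values were seen, namely the ranking over both gates, the co-detection sets, the CD138 tag and Epor, Tfrc, Vwf, Selp, Itga2b, Gp1bb and Ly6a. Members, lists and gates were chosen with earlier results of these data known. Some items that the rule would name are not reported here. Python 3.11.15, numpy 2.4.6, scipy 1.17.1, pandas 2.3.3 and matplotlib 3.10.9 were used, and the ratios were tested on simulated data. Promoter sequences are from RefSeq.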

Additional observations from a re-analysis of the deposited data

Results flagged for a closer look

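Pf4 stood on opposite sides of 0 in the 2 sexes when the MPP2 gate was set against the HSC gate. Members with Xist gave log2 ratios of 1.66 (1.55 to 1.78) in the control and 1.30 (1.16 to 1.44) in the chelator pool, and members with Y-linked transcripts -1.30 (-1.67 to -0.94) and -1.57 (-1.90 to -1.25). The difference between the sexes was not tested, and the number of mice of each sex is not known.

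The granulocyte-monocyte list also differed in sign between the sexes when the chelator pool was set against the control pool. Its median log2 ratio was -0.25 in members with Xist, with 2 genes above and 5 below 0, and 0.42 in members with Y-linked transcripts, with 7 above and 4 below. This difference was not tested either. Of the 876 Mpo UMIs of chelator members with Y-linked transcripts, 684 lay in 1 cell.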

How the results depend on the processing

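In all, 99 results were recomputed under up to 15 alternatives, giving 1373 values, of which 1179 stayed within the counting error or the 1.5-fold range, 192 moved further and 2 turned their direction. Both turns came with 1 sex alone: Pf4 over the HSC gate went from 0.84 to -1.43 with Y-linked cells, and the granulocyte-monocyte median over the HSC gate from 1.06 to -0.047 with Xist cells. With cells with Xist, the share difference was 0.931 points and 128 genes were higher than in the MPP3 gate, and with Y-linked cells 29 genes were higher than in both gates and the megakaryocyte median over the MPP3 gate was 1.31. Cells thinned to 5000 UMIs gave 60 higher and 83 lower genes for the chelator, 89 genes over the MPP3 gate, 27 over both gates and a megakaryocyte median of 1.57. With at least 1 UMI in each sum the counts were 210, 262, 752 over the HSC gate, 591 over the MPP3 gate and 110 over both, and with at least 20 UMIs 337 over the MPP3 gate. Fewer counts or more genes tested enter by construction in the last 3 settings; for the sexes the cause was not tested. Median-of-ratios scaling moved none of the 96 values computed with it. Leaving out the 14 cells with both sex markers turned no direction. An alternative without cells above the 95th percentile of depth, and the count over both gates, were added after seeing the data. No paired analysis was possible because each condition was 1 pool. With 93 and 102 members, genes under 50 UMIs were too sparse to count.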
